A study of Mus musculus with 12 samples.

Results

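Re-expression of the scaffold protein KSR1 was compared with GFP in mouse embryonic fibroblasts (MEFs) that lack endogenous KSR1, in the absence of oncogenic Ras. The comparison takes the 3 arrays of the KSR1 line against the 3 arrays of the GFP line, 6 of the 12 arrays in the series, across all 12422 probe sets that are not array controls. The study compared what KSR1 and the oncogenic mutant H-RasV12 change, alone and together, in cells on a KSR1-/- genotype and a DBA strain background. All 4 lines carried GFP. The GFP line carried nothing else, the KSR1 line carried KSR1 and GFP, another line carried H-RasV12 and GFP, and the last carried KSR1, H-RasV12 and GFP together. Each condition was a single cell line measured on 3 arrays, so a difference made by KSR1 and any other difference between these lines cannot be told apart. Nothing in the labels says that the arrays came from separate cultures, and p-values therefore measure only the spread between arrays.

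KSR1 (kinase suppressor of Ras) holds the kinases Raf, MEK and ERK together at the membrane, so that a signal from active Ras passes efficiently down this mitogen-activated protein kinase cascade. Without it, fibroblasts activate ERK more weakly in response to growth factors and to Ras. Once active, ERK raises immediate early transcription factors, ligands of the epidermal growth factor (EGF) receptor and inflammatory mediators, and it also induces phosphatases that shut the pathway down.

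Levels are MAS5 signals, the brightness that Affymetrix software gives to the set of probes for one transcript, scaled so that every array has the same trimmed mean. They are quoted for replicates 1, 2 and 3 in that order, group values are means ± SD (n = 3), and single arrays are named by line and replicate, as in GFP 3 or KSR1 2. Changes are log2 fold changes ± SE from limma, computed after adding 23 to each signal, so that changes among dim probe sets come out too small. Arrays correlated across probe sets with r between 0.925 and 0.965 within the GFP line, between 0.939 and 0.954 within the KSR1 line, and between 0.816 and 0.873 across the lines. GFP 1 stood apart in the beta-actin 3' control, reading 7981 against a range of 16680 to 26873 elsewhere among the 6 arrays. The ratio of the beta-actin 5' to 3' control signals, a sign of RNA quality, was 0.582, 0.755 and 0.565 with GFP and 0.848, 0.93 and 0.796 with KSR1, with no overlap. The same ratio for Gapdh was 1.24, 1.14 and 1.15 with GFP and 1.35, 1.31 and 1.18 with KSR1, and overlapped. The part of these ratios in the comparison of both lines was not tested. The number of arrays limits the precision.

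One of 2 Ksr1 probe sets followed the labels. It read 144, 21.1 and 37.5 with GFP and 933, 1605 and 207 with KSR1, so that every KSR1 array lay above every GFP array (+3.22 ± 0.62, limma adjusted p = 0.00309). The KSR1 arrays themselves ranged widely, and KSR1 3 was closest to the GFP arrays. The second Ksr1 probe set read 324, 225 and 232 with GFP and 266, 366 and 216 with KSR1, and these ranges overlapped (+0.10 ± 0.23, limma adjusted p = 0.854). Of the fibroblast markers, 12 were on the array and 1 of 9 tested was called, Col1a2, which fell; their summed signal was 41466 to 59513 with GFP and 37021 to 38257 with KSR1. Of 14 leukocyte markers on the array 11 were below the filter, and the defining marker Ptprc averaged 15.0 with GFP and 10.0 with KSR1. The summed leukocyte signal was 1552 to 2680 with GFP and 2554 to 5170 with KSR1, mostly from Cd14, an endotoxin coreceptor that rose from 1126 ± 209.7 to 2250.4 ± 687 (+0.96 ± 0.21, limma adjusted p = 0.00816). All 3 tested leukocyte markers had positive values, and Cd14 alone was called. Cd53 read 64.6, 53.8 and 6.47 with GFP and 657, 134 and 241 with KSR1, without overlap (+2.38 ± 0.81, limma adjusted p = 0.0721). Laptm5 was at +0.39 (limma adjusted p = 0.428). Endothelial markers summed to 294 to 498 and 268 to 577, skeletal muscle markers to 1193 to 1412 and 959 to 1462, melanocyte markers to 590 to 650.3 and 768 to 964, and neuron markers to 2463 to 4114 and 3073 to 5219, with 0 called in each list.

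KSR1 was accompanied by broad change in both directions. Of the 6897 probe sets bright enough to test, 813 (11.8%) were called at a limma adjusted p under 0.05, and 343 (4.97%) rose while 470 (6.81%) fell. An unadjusted p under 0.05 was reached by 788 (11.4%) with a higher and 926 (13.4%) with a lower value. Changes of at least 4-fold were called for 76 (1.1%) that rose and 101 (1.46%) that fell, and changes of at least 16-fold for 9 and 17. Leaving out GFP 3 gave 482 calls (204 higher, 278 lower) and leaving out KSR1 2 gave 512 (219 and 293). The 3 arrays of each line did not overlap for 1025 probe sets (14.9%) with a higher and 1089 (15.8%) with a lower value. Taking each of 5288 named genes by its brightest probe set, 267 (5.05%) rose and 381 (7.2%) fell, and these shares are the background for the gene lists described next. The median log2 fold change of all 5288 genes was +0.03. At least 1 further tested probe set each of Adam10, Bmp1, Ets1, Foxm1, H2-K1, Lox, Mcm3, Peg3 and Tbx15 was not called, with the sign of the called one described for that gene.

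**Figure D1:**
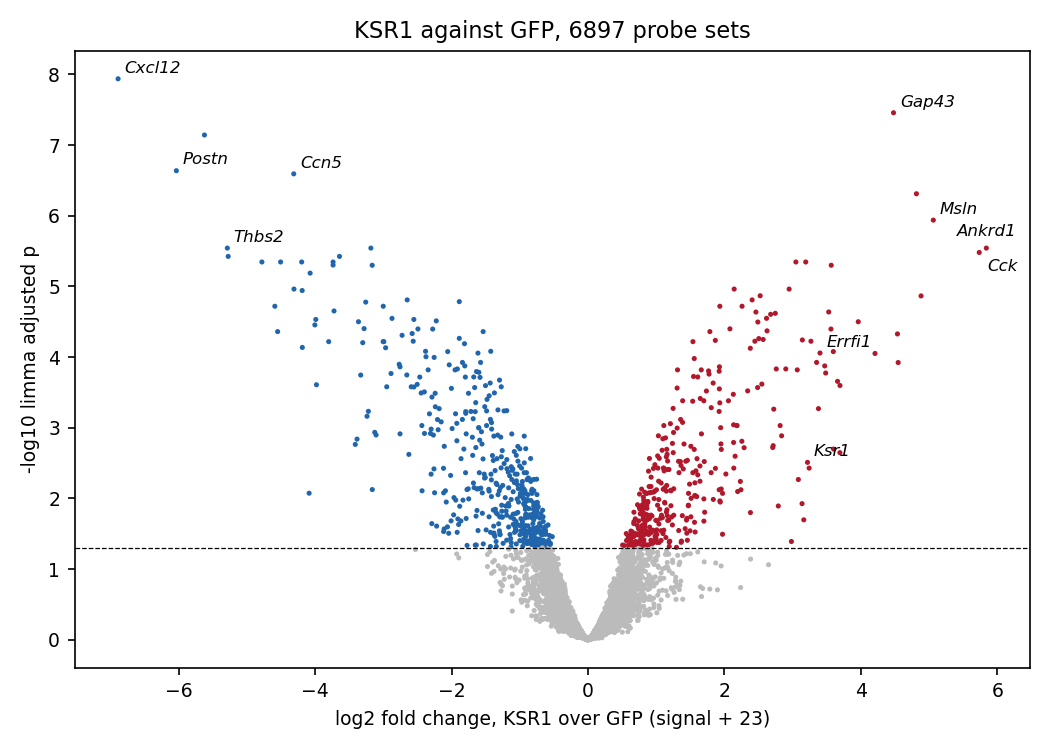
Each point is 1 of 6897 probe sets, with the log2 fold change of KSR1 over GFP on the horizontal axis and minus log10 of the limma adjusted p on the vertical axis. Red points rose and blue points fell past the dashed line at an adjusted p of 0.05, 343 and 470 of them, and named genes reach from -6.89 (Cxcl12) to +5.84 (Ankrd1).

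Few genes of the kinase cascade itself were called, whereas several genes that lie downstream of ERK rose. Of 21 tested genes for the Ras-ERK core and KSR1 partners 2 rose and 0 fell, with a median of +0.05 (-0.03 after median centring). Beside Ksr1 the one that rose was Rasa1, a GTPase-activating protein that switches Ras off, which read 1268, 1115 and 1160.1 with GFP and 3155, 1662 and 2998 with KSR1 (+1.07 ± 0.23, limma adjusted p = 0.00605). The MEK genes Map2k1 (+0.27) and Map2k2 (+0.03) and the adaptor gene Grb2 (+0.19) were not called.

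Of 25 tested ERK-induced transcription factors and early genes 8 rose and 0 fell, with a median of +0.55. The count was 4 without GFP 3 and 5 without KSR1 2, and 1 gene fell without GFP 1 or without KSR1 1. Ier3, an early response gene that protects cells from death, read 1435, 1025 and 1142 with GFP and 7364, 7408 and 5729 with KSR1 (+2.49 ± 0.27, limma adjusted p = 3.19e-05). Fosl1, the AP-1 subunit Fra-1 that marks sustained ERK activity, read 878, 716 and 327 with GFP and 2821, 3006 and 2266 with KSR1 (+2.13 ± 0.38, limma adjusted p = 0.00162). Plaur, the urokinase receptor, read 377, 284 and 286 with GFP and 1120.3, 1024 and 1246 with KSR1 (+1.77 ± 0.24, limma adjusted p = 0.000174). In all 3 genes the lowest KSR1 array was above the highest GFP array. Both Junb probe sets rose, the brighter by +1.04 ± 0.22 (limma adjusted p = 0.0057) and the dimmer by +3.08 ± 0.64 (limma adjusted p = 0.0054). Jun (+1.23), Elk3 (+1.18), Ets1 (+0.94) and Ets2 (+0.77) were the other 4, and their calls ended when single arrays were left out. Leaving out GFP 3 or KSR1 2 ended all 4 calls, and over the arrays whose removal ended a call the limma adjusted p was 0.0746 to 0.0937 for Jun, 0.0653 to 0.107 for Elk3 (also GFP 2 and KSR1 1), 0.0918 to 0.143 for Ets1 (also KSR1 1) and 0.0933 to 0.105 for Ets2 (also GFP 1 and KSR1 3). The classical immediate early genes Fos (-1.23, limma adjusted p = 0.139), Egr1 (+0.25) and Myc (+0.40) were not called.

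AP-1, the dimer that Fosl1 and Junb enter, binds a short palindromic motif, and the bases before 2 genes that rose are shown with that motif, TGANTCA on either strand, in capitals. Both windows end at the base before the RefSeq gene start in GRCm38.p6 and read along the gene. The Plaur window is chr7:24462233-24462482, plus strand, and the Upp1 window, of the uridine phosphorylase gene described later, is chr11:9117758-9118007, plus strand.
Plaur: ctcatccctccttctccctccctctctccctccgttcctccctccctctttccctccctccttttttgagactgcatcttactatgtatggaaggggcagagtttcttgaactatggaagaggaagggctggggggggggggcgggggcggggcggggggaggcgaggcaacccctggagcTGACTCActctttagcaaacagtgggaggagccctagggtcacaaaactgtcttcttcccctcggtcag
Upp1: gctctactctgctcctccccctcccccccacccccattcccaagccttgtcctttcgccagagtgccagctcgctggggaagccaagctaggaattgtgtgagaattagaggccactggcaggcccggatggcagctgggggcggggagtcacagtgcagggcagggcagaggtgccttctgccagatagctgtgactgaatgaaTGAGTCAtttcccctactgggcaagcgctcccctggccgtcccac
The motif lies 69 to 63 bases before the start of Plaur and 45 to 39 bases before that of Upp1. It was found in such windows of 4.88% of 205 genes that rose, 5.25% of 305 that fell and 4.47% of 4298 tested genes with a sequence. Of 6 ERK-induced genes called higher with a sequence 1 held it. Both windows shown hold a match, so they do not show how common the motif is among genes that rose, and AP-1 binding was not measured.

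The feedback regulators that ERK induces showed no called member. Of 6 tested phosphatase, Sprouty and Spred genes 0 rose and 0 fell, 5 had a positive value, and the median was +0.36. Dusp6, the phosphatase most specific for ERK, read 380, 285 and 207 with GFP and 740, 829 and 701 with KSR1, without overlap. It was at +1.35 ± 0.59 (limma adjusted p = 0.17) and Spry4 at -0.06. The SE pools the spread of all 4 lines, and Dusp6 read 577, 43.6 and 62.5 in the KSR1+H-RasV12 line. One member passed in some fits: 1 was called without GFP 1 and 0 without any other array.

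Genes of the EGF receptor system rose in a small group. Of 8 members on the array 4 were below the filter. Of 4 tested members 3 rose, 0 fell and Egfr itself was at +0.11 (limma adjusted p = 0.897). Erbb3 passed the filter only through arrays of lines that carry KSR1, so its place in this count follows in part from its rise. Ereg (epiregulin), a ligand of EGF receptors, read 363, 292 and 170.3 with GFP and 2606, 3438 and 2888 with KSR1 (+3.38 ± 0.52, limma adjusted p = 0.000536). Hbegf, the heparin-binding ligand, read 253, 289.8 and 142 with GFP and 1039, 786 and 689.6 with KSR1 (+1.81 ± 0.28, limma adjusted p = 0.00052). Erbb3, a receptor of the same family that binds neuregulins, was dimmer, at 82.2, 61.9 and 55.0 with GFP and 209, 238 and 244 with KSR1 (+1.51 ± 0.35, limma adjusted p = 0.00998). No array of one line reached into the range of the other in these 3 genes. Errfi1, a cytoplasmic inhibitor of the EGF receptor that growth factors induce, read 737, 644 and 278 with GFP and 6269.9, 5895 and 4815 with KSR1 (+3.40 ± 0.42, limma adjusted p = 8.76e-05), and a second Errfi1 probe set rose as well (+2.68).

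Some secreted signals of inflammation rose and others fell. Cxcl1, Cxcl2 and Cxcl5, neutrophil-attracting chemokines of the CXC family, and Ccl2, which attracts monocytes, rose. The homeostatic chemokine Cxcl12 and the interleukin 1 antagonist Il1rn fell. Of 34 chemokines and cytokines on the array 18 were below the filter, and Cxcl2 passed it only through the KSR1 arrays. Of the 16 tested 5 rose and 4 fell, with 8 positive and 8 negative values and a median of -0.01. Ccl7 (-0.16), Csf1, Csf3 and Cx3cl1 were not called, nor was Ccl9, which was lower without overlap (-1.20, limma adjusted p = 0.0661). The rising count was 3 without GFP 2, GFP 3 or KSR1 1, and the falling count was 2 without GFP 1, GFP 3 or KSR1 2.

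Cxcl1 and Cxcl2 are neighbours on mouse chromosome 5 and are textbook targets of the transcription factor NF-kappaB, and the bases before their starts are shown for that reason. Capitals mark matches to a loose kappaB motif on either strand, of GGG and CC with 5 free bases between them, and overlapping matches run together. The Cxcl1 window is chr5:90890995-90891244, plus strand, and the Cxcl2 window is chr5:90903649-90903898, plus strand, from RefSeq on GRCm38.p6.
Cxcl1: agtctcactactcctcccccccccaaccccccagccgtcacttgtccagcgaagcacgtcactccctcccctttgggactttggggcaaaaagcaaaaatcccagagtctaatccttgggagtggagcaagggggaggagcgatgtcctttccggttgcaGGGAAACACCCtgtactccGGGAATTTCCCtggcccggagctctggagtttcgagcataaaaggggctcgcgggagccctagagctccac
Cxcl2: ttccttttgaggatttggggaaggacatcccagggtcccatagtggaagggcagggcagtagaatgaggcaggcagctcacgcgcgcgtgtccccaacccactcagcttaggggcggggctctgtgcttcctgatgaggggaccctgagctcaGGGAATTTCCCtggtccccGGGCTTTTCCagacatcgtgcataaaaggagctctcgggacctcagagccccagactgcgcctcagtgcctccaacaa
That motif occurred in 64.9% of the windows of genes that rose, 57.7% of those of genes that fell and 62.1% of all. In RefSeq order the same neighbourhood holds Cxcl5, Cxcl1, Cxcl2 and Ereg, and all 4 genes of it that were tested rose. The stretch was bounded by Cxcl5 and Ereg, both called higher, so this count follows from the choice and is a description. Other genes between them, such as Ppbp, Pf4, Cxcl3, Mthfd2l and Epgn, were not tested.

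Cxcl1 read 3860.2, 245 and 893 with GFP and 14342, 11586 and 10209 with KSR1 (+3.60 ± 0.65, limma adjusted p = 0.002). GFP 1 was far above the other 2 GFP arrays and still below every KSR1 array. Cxcl2 was near the bottom of the scale with GFP, at 26.4, 10.5 and 23.8, and read 856, 295 and 366 with KSR1 (+3.48 ± 0.47, limma adjusted p = 0.000168). Ccl2 read 1883, 2161 and 955 with GFP and 12478, 7495 and 8657 with KSR1 (+2.55 ± 0.36, limma adjusted p = 0.000241). Il6, the inflammatory interleukin, read 228, 40.3 and 59.9 with GFP and 4975, 393 and 434 with KSR1 (+3.16 ± 0.82, limma adjusted p = 0.0201), and its call ended without GFP 2 (0.0821), GFP 3 (0.0789) or KSR1 1 (0.0727). Cxcl5 read 5225, 168 and 898 with GFP and 9364, 8237 and 5849 with KSR1 (+2.98 ± 0.88, limma adjusted p = 0.0407) and lost its call without GFP 2 (0.159), GFP 3 (0.113), KSR1 1 (0.107), KSR1 2 (0.117) or KSR1 3 (0.0696).

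Cxcl12, the ligand of CXCR4 that stromal cells secrete to hold stem cells and leukocytes in place, showed the largest fall of all probe sets tested in this comparison. It read 2306, 2978 and 5608 with GFP and only 1.45, 8.23 and 8.03 with KSR1 (-6.89 ± 0.31, limma adjusted p = 1.16e-08), and all 3 Cxcl12 probe sets fell, the least of them at -4.31. Il1rn, the secreted antagonist of the interleukin 1 receptor, read 6562, 8429.5 and 15280.0 with GFP and 1247, 538 and 497 with KSR1 (-3.72 ± 0.39, limma adjusted p = 2.23e-05). Cxcl14 (-1.49) and Kitl (-0.80), the stem cell factor gene, also fell, but the Cxcl14 call ended without GFP 1 (0.0853), GFP 2 (0.0562), GFP 3 (0.0773) or KSR1 2 (0.121) and the Kitl call without GFP 1 (0.0618), GFP 3 (0.129), KSR1 1 (0.0652) or KSR1 2 (0.121), by the limma adjusted p. The part of the higher Cd14 signal in these chemokine values was not tested.

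The inducible enzymes of prostaglandin E2 synthesis rose. Of 9 tested genes of prostaglandin synthesis and receptors 3 rose and 1 fell, with a median of +0.05 (-0.03 after median centring). Ptgs2, the inducible cyclooxygenase COX-2, read 254, 287 and 195 with GFP and 3604, 1519 and 1946 with KSR1 (+3.07 ± 0.41, limma adjusted p = 0.000152). Ptges, the microsomal synthase that acts next to it, read 589, 249.8 and 338 with GFP and 2397, 1766 and 1283 with KSR1 (+2.18 ± 0.36, limma adjusted p = 0.000931). The prostaglandin E2 receptor gene Ptger2 moved the other way, from 278 ± 61.9 to 69.5 ± 11.6 (-1.69 ± 0.31, limma adjusted p = 0.00246), with no overlap of the arrays. The prostacyclin synthase gene Ptgis was called at +0.59 ± 0.18 (limma adjusted p = 0.0459) and lost the call when any one of the 6 arrays was left out (0.079 to 0.135).

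**Figure D2:**
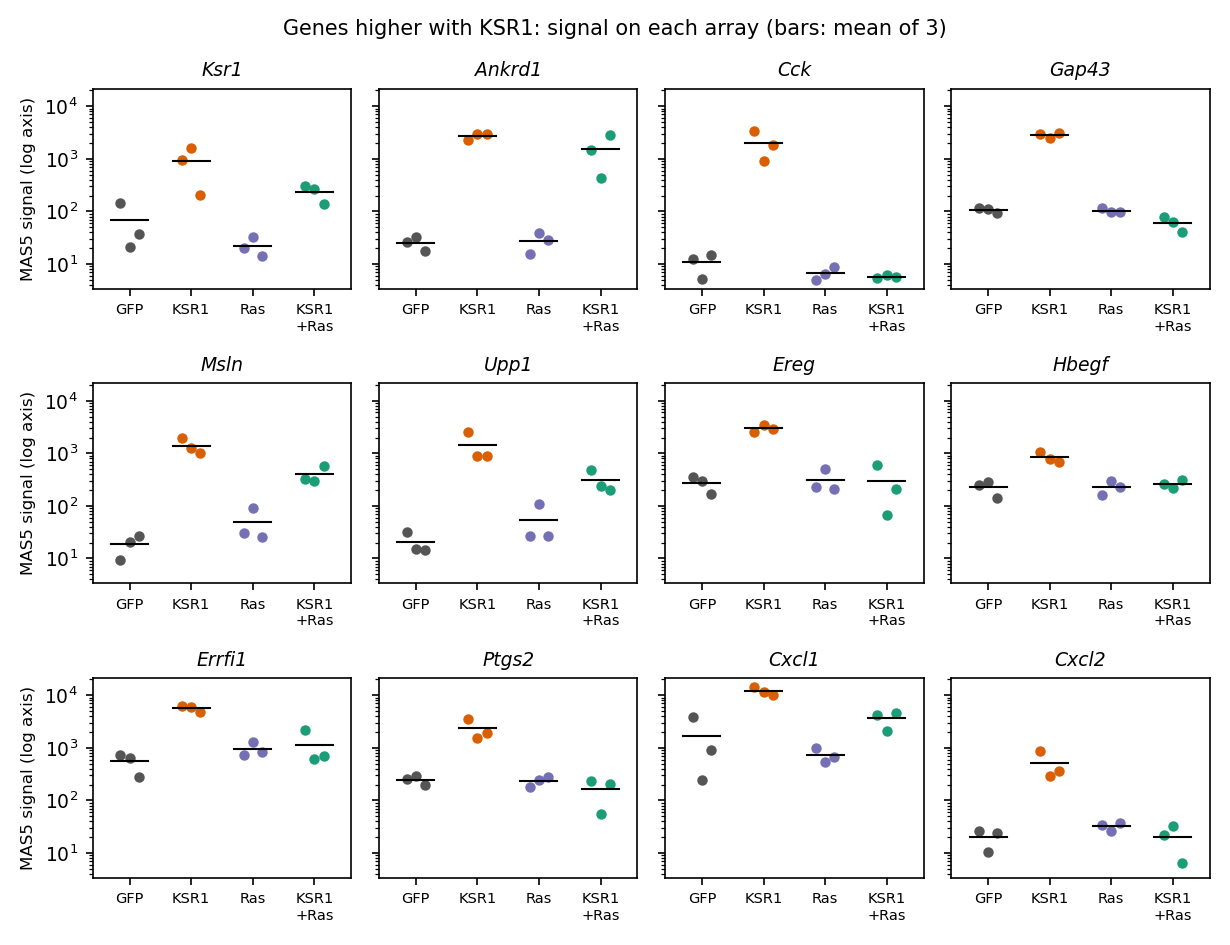
MAS5 signal on a log axis for 12 genes called higher, with 1 point per array and bars at the means of 3 arrays of the GFP, KSR1, H-RasV12 (Ras) and KSR1+H-RasV12 (KSR1+Ras) lines. In each panel the 3 KSR1 points lie above the 3 GFP points, and the GFP points of Cxcl1 spread from 245 to 3860.

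Ankrd1 showed the largest rise. It encodes a muscle ankyrin repeat protein found in the nucleus and sarcomere, and in fibroblasts it is a standard target of YAP and its TEAD partners. It read 26.0, 32.4 and 17.7 with GFP and 2311, 2918 and 3005 with KSR1, near the bottom of the scale in one line and bright on all 3 arrays of the other (+5.84 ± 0.47, limma adjusted p = 2.87e-06). Few other members of the YAP and TEAD list were called: of 11 tested 1 rose and 1 fell, with a median of +0.18. The one that fell was Amot, a YAP-binding angiomotin, from 859.6 ± 225 to 165 ± 38.8 (-2.22 ± 0.24, limma adjusted p = 3.08e-05). Yap1 was at -0.35. The brightest Tead4 probe set was at +0.18 and not called, whereas 2 dimmer Tead4 probe sets were called higher (+1.38 and +2.38, limma adjusted p = 0.0175 and 0.0159). The YAP targets Ccn1 (-0.96, limma adjusted p = 0.0936) and Ccn2 (-1.28, 0.0998), tested with the matrix genes, were not called. The Ankrd1 window at chr19:36119845-36120094, minus strand (RefSeq, GRCm38.p6) is shown with 2 matches to the TEAD motif GGAATG in capitals.
Ankrd1: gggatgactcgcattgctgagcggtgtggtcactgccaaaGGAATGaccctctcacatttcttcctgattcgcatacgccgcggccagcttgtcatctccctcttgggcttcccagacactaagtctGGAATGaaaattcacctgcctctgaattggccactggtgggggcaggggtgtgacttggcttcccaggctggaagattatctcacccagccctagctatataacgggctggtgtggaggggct
The matches lie 210 to 205 and 123 to 118 bases before the start. At least 1 such match was present in 11.2% of windows of genes that rose, 11.1% of those of genes that fell and 10.1% of all.

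Several genes better known from neurons rose with KSR1 in these fibroblasts. Of 58 growth cone, neuronal and guidance genes on the array 30 were below the filter. Of the 28 tested 6 rose and 2 fell, with a median of +0.31. Gap43 passed the filter only through the KSR1 arrays, so the rising count follows in part from the filter. Cck, the peptide hormone cholecystokinin, read 12.6, 5.09 and 14.7 with GFP and 3376, 893 and 1813 with KSR1 (+5.74 ± 0.47, limma adjusted p = 3.31e-06). Gap43, a membrane protein of growth cones, read 117, 111 and 92.3 with GFP and 2986, 2475 and 3166 with KSR1 (+4.48 ± 0.23, limma adjusted p = 3.49e-08). The intermediate filament gene Nes (nestin) read 422, 218 and 216 with GFP and 1754, 2311 and 1848 with KSR1 (+2.75 ± 0.29, limma adjusted p = 2.4e-05). Cck varied widely among the KSR1 arrays, and no array of either line reached into the range of the other for these 3 genes. Uchl1, a ubiquitin hydrolase abundant in neurons, rose from 154 ± 55.8 to 1405 ± 171 (+3.05 ± 0.26, limma adjusted p = 4.52e-06). The secreted guidance cue Sema3c (+1.64 ± 0.32) and Dpysl3, a collapsin response mediator (+1.11 ± 0.22), rose as well, with limma adjusted p values of 0.00348 and 0.00372. Marcks, a membrane-bound substrate of protein kinase C (-1.64 ± 0.30), and the ephrin gene Efnb1 (-1.92 ± 0.31) fell (limma adjusted p = 0.0019 and 0.000867). Of 8 general neuron markers 6 were below the filter, and Tubb3 (+0.20) and Map2 (-0.23) were not called.

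A few mesothelial and epithelial genes rose as well. Of 37 on the array only 13 were bright enough to test, and of those 4 rose and 0 fell, with a median of +0.75, while 1 fell without GFP 1. Cldn3 passed the filter only through the KSR1 arrays, and Msln and Krt19 only through lines that carry KSR1. This count and median therefore follow in part from the filter. Msln (mesothelin), the surface antigen of the mesothelium, read 9.17, 20.7 and 27.1 with GFP and 1924, 1270.3 and 1020.5 with KSR1 (+5.06 ± 0.37, limma adjusted p = 1.15e-06). The tight junction gene Cldn3 read 144, 64.7 and 78.5 with GFP and 571, 410.1 and 397 with KSR1 (+2.06 ± 0.31, limma adjusted p = 0.000415). Ezr (ezrin), which links membrane to actin, read 496, 494 and 523 with GFP and 1504, 1433 and 1848 with KSR1 (+1.61 ± 0.22, limma adjusted p = 0.000191). The groups were fully apart in each. Krt19, a simple epithelial keratin, rose from 118 ± 17.1 to 418 ± 226 (+1.54 ± 0.31, limma adjusted p = 0.00433). Cdh1, the epithelial cadherin, was at +0.35 and was not called.

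Further genes were among the 25 largest rises. Upp1, the uridine phosphorylase that salvages pyrimidines, read 32.6, 15.4 and 14.3 with GFP and 2519, 876 and 873 with KSR1 (+4.88 ± 0.48, limma adjusted p = 1.36e-05), and its second probe set was not called (+0.35). Tnfrsf9, the costimulatory receptor 4-1BB, read 67.7, 3.5 and 21.6 with GFP and 1137, 781 and 413 with KSR1 (+3.96 ± 0.43, limma adjusted p = 3.16e-05). Ramp3, which shapes calcitonin-family receptors, read 54.4, 25.5 and 33.2 with GFP and 1288, 486 and 663 with KSR1 (+3.69 ± 0.52, limma adjusted p = 0.000253). The arrays of the KSR1 line were above those of the GFP line throughout, and Tnfrsf9 varied most among the GFP arrays. The LIM protein gene Crip1 (+3.60 ± 0.44), the AMP deaminase gene Ampd3 (+3.57 ± 0.31), the acetylcholine receptor subunit gene Chrnb1 (+3.47 ± 0.45), the synaptic vesicle gene Syngr1 (+3.35 ± 0.43), the sheddase gene Adam8 (+3.27 ± 0.39), the guanine nucleotide exchange factor gene Ngef (+3.24 ± 0.64), the endoplasmic reticulum autophagy receptor gene Retreg1 (+3.19 ± 0.28) and the meiotic crossover gene Ccnb1ip1 (+3.14 ± 0.37) rose too (limma adjusted p between 4.52e-06 and 0.00373).

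Many extracellular matrix genes fell. Of 24 tested interstitial collagens and collagen-processing enzymes 12 fell and 2 rose, with a median of -0.97. Of 14 tested basement membrane genes 6 fell and 1 rose, with a median of -0.78. Of 29 tested matricellular, elastic and proteoglycan genes 12 fell and 1 rose, with a median of -0.93. The falling counts of these 3 lists stayed within 1.5 times when any 1 array was left out. The summed signal of the fibroblast markers, several of which are matrix genes themselves, was lower beside them, and its part in these values was not tested.

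Among the fibril-forming chains Col3a1, the type III collagen of soft tissue, read 7355, 4594 and 5145 with GFP and 2037, 1943 and 1025 with KSR1 (-1.79 ± 0.28, limma adjusted p = 0.000591). Col1a2, a chain of type I collagen, read 11841, 13131 and 16106 with GFP and 5836, 5379 and 5636 with KSR1 (-1.27 ± 0.18, limma adjusted p = 0.000263), while a second Col1a2 probe set was not called (+0.21). Col6a2, one of the beaded-filament chains, read 2349, 1302 and 2462 with GFP and 408, 449 and 308 with KSR1 (-2.29 ± 0.34, limma adjusted p = 0.000368). The KSR1 arrays were the lower ones in each, without overlap. Col5a1 (-1.45 ± 0.21), Col5a2 (-1.26 ± 0.23), Col6a1 (-1.42 ± 0.29), Col6a3 (-1.89 ± 0.22), Col11a1 (-2.32 ± 0.37) and the crosslinking enzyme gene Lox (-1.63 ± 0.35) fell (limma adjusted p between 5.43e-05 and 0.00733). The other type I chain, Col1a1, read 14039, 19577 and 21962 with GFP and 7550, 9357 and 8475 with KSR1, without overlap. It was not called (-1.11 ± 0.73, limma adjusted p = 0.392), with an SE that pools the spread of all 4 lines. In the KSR1+H-RasV12 line Col1a1 read 4299, 1921 and 178. Col14a1, Pcolce and the procollagen protease gene Bmp1 were called (-1.86, -1.19 and -0.82) but each lost its call without GFP 1, GFP 3 or KSR1 3, and Bmp1 also without KSR1 2, with limma adjusted p values of 0.0511 to 0.129. The collagens that rose were Col8a1, a short-chain collagen of vessels and cornea, from 272 ± 152 to 1181 ± 134 (+2.18 ± 0.36, limma adjusted p = 0.000931), and Col18a1, the source of endostatin, from 419 ± 39.9 to 1258 ± 426 (+1.49 ± 0.32, limma adjusted p = 0.00628), for which all 4 probe sets rose.

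In the basement membrane Col4a1, the main type IV collagen chain, read 1434, 1601 and 1757 with GFP and 245, 87.8 and 174 with KSR1 (-3.16 ± 0.28, limma adjusted p = 5.02e-06). Its partner chain Col4a2 read 1479, 1499.5 and 1783 with GFP and 589, 185 and 169 with KSR1 (-2.47 ± 0.34, limma adjusted p = 0.000192). Nid2, a nidogen that links laminin to collagen IV, read 375, 822 and 1026 with GFP and 83.8, 2.16 and 10.4 with KSR1 (-3.98 ± 0.56, limma adjusted p = 0.000246). The 2 collagen chains, whose genes share a promoter region, were lower on every KSR1 array than on any GFP array, as was Nid2. Lama2 (-2.40 ± 0.41) and Sparc (-1.65 ± 0.25), a collagen-binding matricellular protein, fell too (limma adjusted p = 0.0012 and 0.000441). Lama4 (-1.45) lost its call without GFP 3 (0.0812), KSR1 2 (0.0607) or KSR1 3 (0.0699) by the limma adjusted p. Against this trend Lama5, the laminin chain typical of epithelial basement membranes, rose from 177 ± 98.2 to 1237 ± 189 (+2.76 ± 0.36, limma adjusted p = 0.000147), on both of its probe sets.

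Postn (periostin), a matricellular protein of fibroblast stroma, read 1440.1, 3448 and 2817 with GFP and 24.5, 21.4 and 1.34 with KSR1 (-6.03 ± 0.37, limma adjusted p = 2.31e-07). Thbs2, an antiangiogenic thrombospondin, read 5303, 4289 and 2856 with GFP and 91.5, 78.9 and 72.2 with KSR1 (-5.29 ± 0.41, limma adjusted p = 2.87e-06). Ccn5, a growth-inhibiting member of the CCN family, read 1288, 1736 and 2142 with GFP and 68.7, 76.4 and 46.8 with KSR1 (-4.31 ± 0.27, limma adjusted p = 2.56e-07). All 3 were bright with GFP and close to the bottom of the scale with KSR1. The small leucine-rich proteoglycans Fmod (-4.59 ± 0.47) and Ogn (-3.74 ± 0.33) fell in the same range (limma adjusted p = 1.91e-05 and 4.99e-06), while Dcn (+0.95) and Lum (-0.70) of that family were not called. Ccn4 (-1.89 ± 0.19), Ccn3 (-1.86 ± 0.35), the large proteoglycan Vcan (-1.43 ± 0.20), Sdc2 (-1.07 ± 0.22) and Fbln2 (-0.93 ± 0.19) also fell (limma adjusted p between 1.64e-05 and 0.00452). Fbn2 (-2.25) and Gpc4 (-1.41) lost their calls, by the limma adjusted p, without GFP 3 (0.0526) for Fbn2 and GFP 3 (0.0622) or KSR1 2 (0.054) for Gpc4. Gpc1, a cell surface heparan sulfate proteoglycan, was the member that rose (+1.21 ± 0.20, limma adjusted p = 0.000876).

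Of 14 tested matrix proteases and inhibitors 5 fell and 2 rose, with a median of -0.49. Reck, a membrane-anchored inhibitor of matrix metalloproteases, read 519, 847 and 994 with GFP and 138, 35.5 and 78.5 with KSR1 (-2.99 ± 0.35, limma adjusted p = 6.05e-05). Serpinf1, the antiangiogenic factor PEDF, fell from 7218 ± 1373 to 1566 ± 446 (-2.21 ± 0.35), and Plat, tissue plasminogen activator, from 1599 ± 313 to 384 ± 170.4 (-2.06 ± 0.25, limma adjusted p = 0.000766 and 8.37e-05). Of the inhibitors Timp3 fell (-1.21), a call lost without GFP 2 (0.0514), and Timp1 was called higher (+0.74), a call lost when any one of the 6 arrays was left out (0.0715 to 0.132). With Timp1 lost, Adam8 was the 1 gene left that rose in this list. Adam10 (-0.76) lost its call without GFP 1 (0.0782) or KSR1 2 (0.0897).

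Several cell adhesion receptors rose. Of 19 tested cell adhesion receptors 6 rose and 1 fell, with a median of +0.38. Itga3, a laminin receptor subunit, read 251, 195 and 153 with GFP and 824, 1283 and 506 with KSR1 (+1.93 ± 0.29, limma adjusted p = 0.000444). Itga6, a second laminin receptor subunit, read 94.6, 99.6 and 109.8 with GFP and 514, 316 and 578 with KSR1 (+1.95 ± 0.32, limma adjusted p = 0.000998). Both were higher on every KSR1 array, while their partner Itgb1 was at -0.13. The leukocyte integrin gene Itgb7 rose from 351 ± 193 to 1203 ± 246 and N-cadherin, Cdh2, from 376 ± 100.0 to 992 ± 226 (limma adjusted p = 0.00432 and 0.00301). The hyaluronan receptor gene Cd44 (+1.47) lost its call without GFP 3 (0.0634) or KSR1 2 (0.06), and the tetraspanin gene Cd9 (+0.68) when any one of the 6 arrays was left out (0.0587 to 0.158). Ncam1, a neural cell adhesion molecule also found on fibroblasts, fell from 1044 ± 180.2 to 358 ± 91.9 (-1.50 ± 0.21, limma adjusted p = 0.000254).

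**Figure D3:**
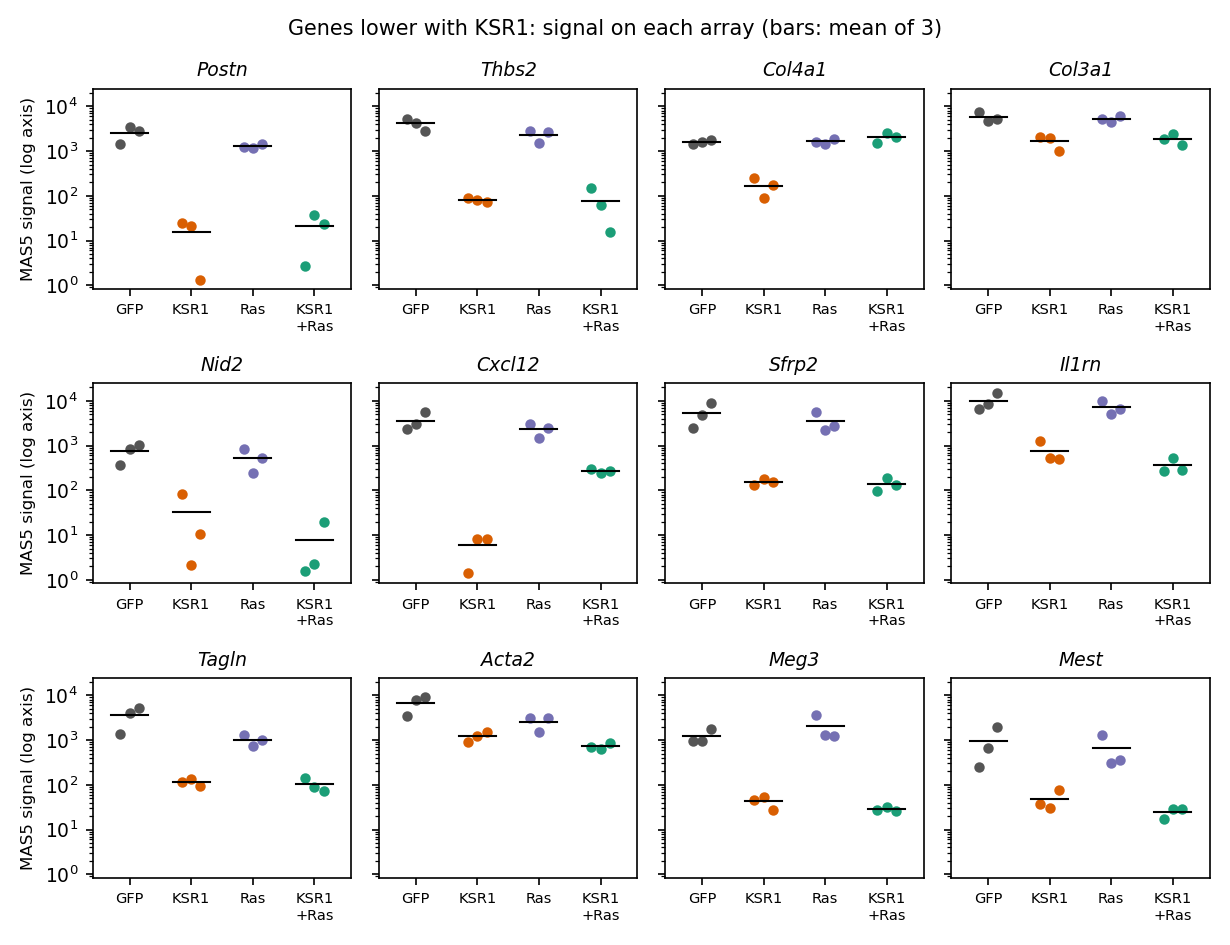
MAS5 signal on a log axis for 12 genes called lower, with 1 point per array and bars at the means of 3 arrays of the GFP, KSR1, H-RasV12 (Ras) and KSR1+H-RasV12 (KSR1+Ras) lines. In every panel the 3 KSR1 points lie below the 3 GFP points, and in the Col4a1 panel the KSR1+H-RasV12 mean is no lower than the GFP mean.

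Some genes of the contractile smooth muscle programme, which serum response factor (SRF) drives, fell. Of 22 tested members 8 fell and 0 rose, with a median of -0.12. Tagln (SM22-alpha), an actin-binding marker of smooth muscle and myofibroblasts, read 1399, 4092 and 5142 with GFP and 116, 135 and 94.3 with KSR1 (-4.51 ± 0.39, limma adjusted p = 4.52e-06). Acta2, smooth muscle alpha-actin, read 3470.4, 8063 and 9061 with GFP and 886, 1210.2 and 1540.5 with KSR1 (-2.40 ± 0.35, limma adjusted p = 0.000311). Myl9, a regulatory myosin light chain, read 460.4, 709 and 916 with GFP and 19.3, 136 and 138 with KSR1 (-2.75 ± 0.47, limma adjusted p = 0.00122). GFP 1 was the lowest GFP array for all 3 and was still above every KSR1 array. The LIM protein genes Fhl1 (-4.55 ± 0.52), Csrp2 (-2.87 ± 0.31) and Csrp1 (-1.12 ± 0.22) fell (limma adjusted p = 4.36e-05, 2.84e-05 and 0.00356). Actg2, gamma smooth muscle actin, fell by 1.81 ± 0.23 (limma adjusted p = 0.000133) on a probe set that the array design marks as shared by a gene family. Tpm2 (-0.77) lost its call without GFP 3 (0.0881) or KSR1 1 (0.054). Actb (+0.16), Vcl (+0.05) and Tpm4 (+0.14) were not called.

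SRF binds the CArG box, and the Myl9 window at chr2:156775214-156775463, plus strand (RefSeq, GRCm38.p6) is shown with its match in capitals, 161 to 152 bases before the start.
Myl9: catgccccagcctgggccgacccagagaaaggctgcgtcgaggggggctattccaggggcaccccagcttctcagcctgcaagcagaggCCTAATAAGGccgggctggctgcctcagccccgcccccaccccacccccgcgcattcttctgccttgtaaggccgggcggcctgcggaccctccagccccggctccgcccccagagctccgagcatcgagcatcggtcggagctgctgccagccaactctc
Of 5 called members of this list with a sequence 2 held a CArG box, against 2.95% of all windows of genes that fell, 1.95% of those of genes that rose and 1.26% of all 4298. The list was compiled around SRF-regulated genes, so CArG boxes among its members can come from that choice. Members of the list that were not called were not compared. These are letters in a window of 250 bases, and whether SRF binds there was not measured.

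Some genes of Wnt signalling fell. Of 14 tested Wnt ligands, antagonists and targets 5 fell and 0 rose, with a median of -0.34, and the count was 3 without GFP 1 or GFP 3 and 2 without KSR1 3. Sfrp2, a secreted decoy receptor for Wnt proteins, read 2508, 4938 and 8889.5 with GFP and 129.7, 178 and 153 with KSR1 (-4.78 ± 0.41, limma adjusted p = 4.52e-06). The Wnt coreceptor gene Lrp6 fell from 1488 ± 224 to 484 ± 91.2 (-1.58 ± 0.22, limma adjusted p = 0.000194). Dkk3 (-2.08) lost its call without KSR1 3 (0.054), Fzd1 (-1.38) without GFP 1 (0.101), GFP 3 (0.115), KSR1 1 (0.0518) or KSR1 3 (0.128), and Sfrp1 (-1.77) without GFP 1 (0.14), GFP 3 (0.182), KSR1 2 (0.188) or KSR1 3 (0.0968).

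In the TGF-beta, activin and BMP pathway 2 of 26 tested genes rose and 3 fell, with a median of -0.11. Grem1 (gremlin), a secreted BMP antagonist, read 82.6, 72.3 and 37.8 with GFP and 375, 333 and 345 with KSR1 (+2.14 ± 0.42, limma adjusted p = 0.00373). Tgfbi, a matrix protein that TGF-beta induces, read 1655, 194 and 398 with GFP and 55.1, 28.7 and 34.0 with KSR1 (-3.13 ± 0.53, limma adjusted p = 0.00116). GFP 1 stood far above the other GFP arrays for Tgfbi. The inhibitory Smad gene Smad6 fell (-1.33 ± 0.28, limma adjusted p = 0.00635). Fst (follistatin, +1.56) lost its call without GFP 1 (0.0641), GFP 3 (0.0603), KSR1 1 (0.0649), KSR1 2 (0.0728) or KSR1 3 (0.0508), which left 1 gene higher. Fstl1 (-0.91) lost it without GFP 1 (0.144), GFP 3 (0.081), KSR1 2 (0.088) or KSR1 3 (0.15). With the replicate number as a block 6 genes of this list fell.

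Other growth factor systems moved in single genes. Of 14 tested receptor tyrosine kinases and ligands outside the EGF family 2 fell and 0 rose, against 4 without GFP 1 and 4 with the replicate block, and the median was -0.33. Ptn (pleiotrophin), a heparin-binding growth factor, read 730.2, 235 and 504 with GFP and 6.8, 0.31 and 1.31 with KSR1 (-4.19 ± 0.40, limma adjusted p = 1.14e-05). Gas6, the ligand of Axl-type receptors named for its expression in growth arrest, read 1239, 1688 and 3114 with GFP and 109, 127 and 60.3 with KSR1 (-4.00 ± 0.44, limma adjusted p = 3.51e-05). Both were far apart between the lines. In the insulin-like growth factor system 3 of 8 fell and 0 rose, namely Igfbp2 (-1.97), Igfbp3 (-2.01) and Igf2r (-0.56), and 0 were called without GFP 3, KSR1 2 or KSR1 3 and 1 without GFP 1 or GFP 2, where their limma adjusted p was 0.0632 to 0.111 when lost.

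Transcription factors of mesenchymal identity moved in both directions. Of 43 tested 8 fell and 4 rose, with a median of -0.20, and the falling count was 3 without GFP 3 and 5 without KSR1 2. Snai2 (Slug), a repressor of epithelial genes, read 2509.9, 4514 and 4066 with GFP and 1049, 1284 and 1504 with KSR1 (-1.49 ± 0.23, limma adjusted p = 0.000578). Prrx1, a homeobox factor of limb and craniofacial mesenchyme, read 271, 560.5 and 400.2 with GFP and 1089.7, 1169 and 1057 with KSR1 (+1.43 ± 0.27, limma adjusted p = 0.00298). Of the paired relatives in the list Twist2 rose (+1.31 ± 0.22, limma adjusted p = 0.00101), Twist1 was at -0.46 and not called, and Prrx2 was called lower (5610.3 ± 1027 with GFP, 2792 ± 415 with KSR1) but not without GFP 3 (0.0554). Foxc2 rose from 167 ± 45.4 to 650.3 ± 138 and Sox11 from 327 ± 71.0 to 1153 ± 299.7 (limma adjusted p = 0.000233 and 0.000302). The TALE homeobox gene Pbx3 (-1.67 ± 0.36) and Dlx2 (-1.02 ± 0.22) fell (limma adjusted p = 0.00704 and 0.00727). Of the Hox genes tested only Hoxa5 was called (-0.99), a call lost without GFP 3 (0.0564). Six2 (-1.55) lost its call without GFP 3 (0.085), KSR1 2 (0.0577) or KSR1 3 (0.0658), Meis1 (-1.38) without GFP 2 (0.102), GFP 3 (0.121), KSR1 1 (0.0668) or KSR1 2 (0.0844) and Tbx15 (-0.92) without GFP 2 (0.0521), GFP 3 (0.137), KSR1 2 (0.0627) or KSR1 3 (0.102).

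Imprinted genes, which are expressed from one parental copy and in many cases restrain or promote fetal growth, had the lowest median of the lists, -1.25. Of 14 tested 8 fell and 0 rose. The number dropped to 4 without GFP 2 and to 5 without GFP 3, KSR1 2 or KSR1 3. Meg3, a maternally expressed long noncoding RNA, read 960.1, 941 and 1744 with GFP and 45.8, 54.7 and 27.9 with KSR1 (-4.20 ± 0.36, limma adjusted p = 4.52e-06). Dlk1, the paternally expressed gene of the same cluster, read 1144, 2432 and 2903 with GFP and 244, 552 and 277 with KSR1 (-2.50 ± 0.35, limma adjusted p = 0.000243). Ndn (necdin) read 353, 864 and 1289 with GFP and 42.6, 11.6 and 8.89 with KSR1 (-4.19 ± 0.51, limma adjusted p = 7.31e-05). Mest fell from 946 ± 867 to 47.2 ± 24.2 (-3.41 ± 0.61, limma adjusted p = 0.00172), with GFP 3 the highest of 3 widely spread GFP arrays. Peg3 (-2.11), Grb10 (-1.90), Impact (-1.61) and Igf2r (-0.56) lost their calls without GFP 2 (0.0556), GFP 3 (0.121), KSR1 1 (0.075) or KSR1 3 (0.0819) for Peg3, GFP 2 (0.0654), GFP 3 (0.0781), KSR1 2 (0.0724) or KSR1 3 (0.0964) for Grb10, GFP 1 (0.109), GFP 2 (0.0652) or KSR1 2 (0.126) for Impact and any one of the 6 arrays for Igf2r (0.0641 to 0.111). Igf2 (+0.19) and Plagl1 (-0.89) were not called. Xist, the noncoding RNA of the inactive X chromosome, was chosen after its values were seen. It read 618, 1180.3 and 409.8 with GFP and 325, 121 and 125 with KSR1 (-1.83 ± 0.42, limma adjusted p = 0.0106), and its call ended without GFP 2 (0.0545) or KSR1 2 (0.0586).

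A small number of cell cycle genes was called, where 5.05% of all genes rose and 7.2% fell. Of 38 tested S phase and DNA replication genes 3 rose and 0 fell. A positive value was found for 37 (36 after quantile normalization, 33 after median centring), against 2803 of all 5288 genes, and the median was +0.46. The 3, Mcm3 (+0.74), Cdc45 (+0.81) and Pola2 (+0.94), all lost their calls without GFP 2, GFP 3 or KSR1 2, which left 0, and 1 was left without GFP 1 or KSR1 3 (limma adjusted p of 0.0575 to 0.197 where lost). A second Pola2 probe set was at -0.08 and not called. Of 35 mitotic genes 2 rose and 0 fell, with a median of +0.22. Prc1, which bundles microtubules in the spindle midzone, read 1427, 2202 and 1619 with GFP and 3897, 4479 and 3920.4 with KSR1 (+1.24 ± 0.22, limma adjusted p = 0.00166). Foxm1 (+0.83) lost its call without GFP 3 (0.173), KSR1 1 (0.0668) or KSR1 2 (0.139), which left 1, and 4 mitotic genes rose with the replicate block. The proliferation marker Mki67 was at +0.21.

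Of 22 tested p53 targets and cell cycle inhibitors 3 fell and 1 rose, with a median of -0.54, while 8 fell without GFP 1 and 2 rose without KSR1 1. Beside Gas6, the stress gene Gadd45a fell from 1074 ± 188 to 331 ± 103 (-1.66 ± 0.24, limma adjusted p = 0.00027), and Gadd45g (-1.75) was called with overlapping arrays and not without GFP 3 (0.0617). Btg1, an antiproliferative gene, rose from 824 ± 132 to 1796 ± 135 (+1.11 ± 0.18, limma adjusted p = 0.000931). The direct p53 target Cdkn1a was at -0.61 (limma adjusted p = 0.13) and Mdm2 at -0.19.

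Interferon response and antigen presentation genes fell in part. Of 28 tested 5 fell and 1 rose, with a median of -0.31. The falling count was 3 without GFP 1, GFP 3 or KSR1 2 and 2 without KSR1 3, and the rising count was 2 without GFP 1. Tap2, a subunit of the peptide transporter for MHC class I, read 243, 143 and 229.7 with GFP and 53.2, 11.2 and 16.1 with KSR1 (-2.26 ± 0.45, limma adjusted p = 0.00382). Ifi35 read 483, 212 and 259 with GFP and 44.8, 53.2 and 51.0 with KSR1 (-2.15 ± 0.35, limma adjusted p = 0.000825). H2-K1, a class I heavy chain measured by a probe set shared within that gene family, rose from 1984 ± 1006 to 4315 ± 388 (+1.22 ± 0.27, limma adjusted p = 0.0078). Isg15 (-2.06) lost its call without GFP 1 (0.0897), GFP 3 (0.0659), KSR1 2 (0.107) or KSR1 3 (0.0888), Tap1 (-1.26) without KSR1 3 (0.0579), and Ifi27 (2475 ± 305 with GFP, 1229 ± 183 with KSR1) when any one of the 6 arrays was left out (0.0544 to 0.141).

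Several detoxifying enzymes fell, and few lipid genes were called. Of 31 tested genes of retinoid, glutathione and xenobiotic metabolism 9 fell and 2 rose, with a median of +0.08. Gpx7, a glutathione peroxidase of the endoplasmic reticulum, read 656, 679.9 and 595 with GFP and 65.5, 12.3 and 11.9 with KSR1 (-3.80 ± 0.45, limma adjusted p = 6.05e-05). Cyp1b1, a cytochrome P450 that oxidises steroids and aromatic compounds, read 2226, 3429 and 3559 with GFP and 350.5, 472 and 578 with KSR1 (-2.66 ± 0.36, limma adjusted p = 0.000179). The KSR1 arrays were lower throughout. Gsta4 (-2.63 ± 0.49), Gstm2 (-2.44 ± 0.36), Gpx3 (-2.43 ± 0.53), Mgst1 (-2.12 ± 0.42) and Ephx1 (-1.59 ± 0.32) fell (limma adjusted p between 0.000322 and 0.0078), although a second Gstm2 probe set was at +0.59. The glutathione reductase gene Gsr rose (+1.33 ± 0.27, limma adjusted p = 0.00432), as did Gsto1 (+1.10 ± 0.24, limma adjusted p = 0.00742), whose call was lost with replicates 2 and 3 only (limma adjusted p = 0.0602). Gstt1, from 385 ± 132 to 134 ± 63.8, and Cbr3 (-1.34) were called lower (limma adjusted p = 0.0302 and 0.0479). The Gstt1 call was lost without GFP 1 (0.0982), GFP 3 (0.0954) or KSR1 3 (0.118), and the Cbr3 call without GFP 2 (0.175), GFP 3 (0.163), KSR1 1 (0.185) or KSR1 3 (0.076). The Nrf2 targets Nqo1 (+0.31) and Hmox1 (+0.13) were not called. Of 18 adipocyte and lipid storage genes on the array 9 were below the filter. Of the 9 tested Plin2, which coats lipid droplets, rose (+1.10 ± 0.19, limma adjusted p = 0.00143) and 2 were higher without GFP 1. Among those below the filter, the adipocyte regulator Pparg read 107, 124 and 155 with GFP and 17.2, 4.49 and 1.42 with KSR1. In a fit without the filter it was at -2.33 ± 0.28 (limma adjusted p = 0.000281). Of 18 cholesterol genes 1 fell, Cyp51 (-0.78), which lost its call without GFP 3 (0.0978), KSR1 2 (0.0797) or KSR1 3 (0.0678), while 2 fell without GFP 2 or KSR1 1.

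**Figure D4:**
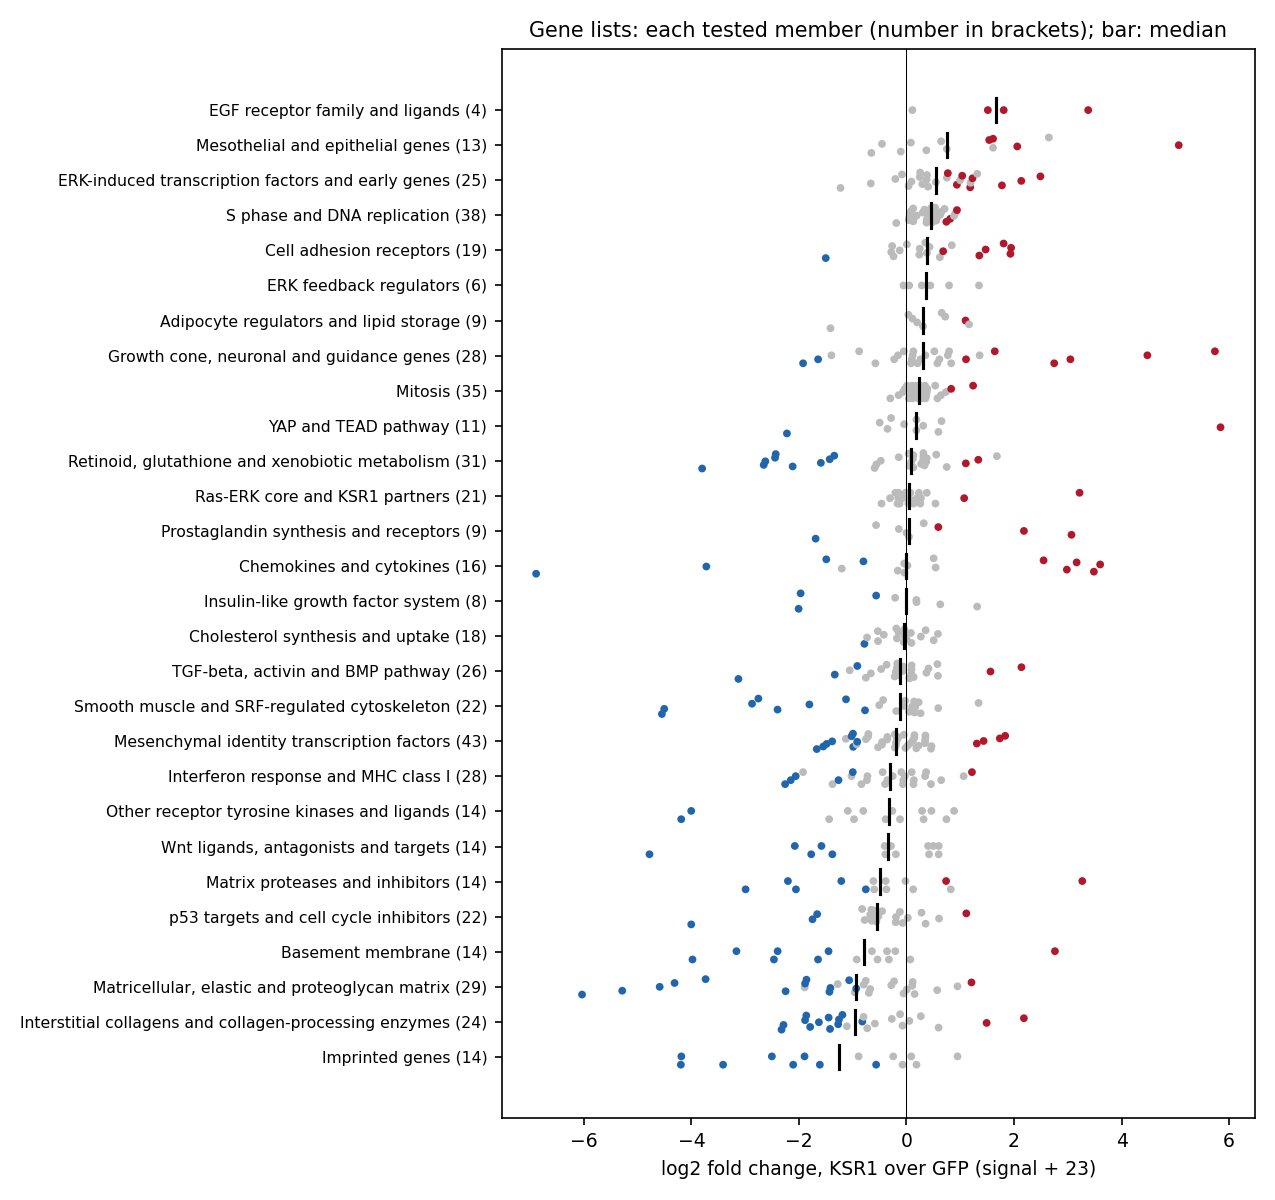
Each point is the log2 fold change of KSR1 over GFP for 1 tested member of the gene list named at the left, with the number tested in brackets, and the black bar is the list's median. Red points rose, blue points fell and grey points did not pass a limma adjusted p of 0.05, and medians run from -1.25 for imprinted genes to +1.66 for the 4 EGF receptor family genes. Some members passed the filter only through lines that carry KSR1.

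Among the largest falls outside these groups, the neutral endopeptidase gene Mme read 799, 335 and 644 with GFP and 8.14, 19.9 and 7.79 with KSR1 (-4.07 ± 0.37, limma adjusted p = 6.49e-06). Stbd1, which tethers glycogen to membranes, read 767, 678 and 717 with GFP and 65.6, 13.6 and 42.0 with KSR1 (-3.64 ± 0.30, limma adjusted p = 3.76e-06). Pmp22, a myelin protein also known as growth arrest-specific 3, read 1741, 1492 and 1905 with GFP and 257, 151 and 119 with KSR1 (-3.18 ± 0.25, limma adjusted p = 2.87e-06). No KSR1 array reached the GFP range, and Mme varied most among the GFP arrays. The natriuretic peptide clearance receptor gene Npr3 (-3.99 ± 0.43), the cysteine dioxygenase gene Cdo1 (-3.38 ± 0.59), the teneurin gene Tenm3 (-3.36 ± 0.37) and the ganglioside synthase gene St3gal5 (-3.30 ± 0.39) fell as well (limma adjusted p between 2.94e-05 and 0.00145).

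The same transgene was compared on arrays that share none of these 6, the 3 of the KSR1+H-RasV12 line against the 3 of the H-RasV12 line. The Ksr1 probe set that followed the labels read 20.2, 32.2 and 14.2 with H-RasV12 and 301, 262 and 141 with KSR1 added (+2.47 ± 0.62, limma adjusted p = 0.0136). Its mean was 235 ± 83.6 in the KSR1+H-RasV12 line and 915 ± 699 in the KSR1 line (difference in response -0.75 ± 0.87, limma adjusted p = 0.71). The part of this lower Ksr1 signal in the responses below was not tested. In this second comparison 490 probe sets (7.1%) were called higher and 532 (7.71%) lower. Of the 343 that rose without H-RasV12, 96 (28.0%) also rose with it, 26 (7.58%) fell and 221 were not called, and the 96 make up 19.6% of the 490. Of the 470 that fell without H-RasV12, 185 (39.4%) also fell with it, 20 (4.26%) rose and 265 were not called, and the 185 make up 34.8% of the 532. The median change of the 343 was +1.20 without and +0.29 with H-RasV12, and that of the 470 was -1.22 and -0.55, beside -0.05 for all probe sets with H-RasV12. A test of the difference between both KSR1 responses called 531 probe sets (7.7%), 287 (4.16%) with a value higher and 244 (3.54%) with a value lower on the H-RasV12 background, among them 124 of the 343 and 111 of the 470. Of these, 119 and 102 were smaller or opposite with H-RasV12 and 5 and 9 larger. These probe sets were chosen by their change in arrays that the test also uses, and a smaller response elsewhere is what such a choice favours.

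Some responses kept their direction in both settings, with no called difference. Ankrd1 read 15.6, 38.1 and 28.9 with H-RasV12 and 1472, 429 and 2799 with KSR1 added (+4.64 ± 0.47, limma adjusted p = 1.26e-05, difference -1.20 ± 0.66, limma adjusted p = 0.342). Ier3 (+2.56 ± 0.27), Lama5 (+2.78 ± 0.36), Tnfrsf9 (+4.95 ± 0.43), Retreg1 (+3.61 ± 0.28), Syngr1 (+4.24 ± 0.43) and Ampd3 (+4.75 ± 0.31) also rose on the H-RasV12 background (limma adjusted p between 3.87e-07 and 0.00011), and their differences were not called. Among genes that fell, Postn (-4.97 ± 0.37), Thbs2 (-4.78 ± 0.41), Sfrp2 (-4.39 ± 0.41), Ogn (-3.81 ± 0.33), Il1rn (-4.23 ± 0.39), Nid2 (-4.08 ± 0.56) and Meg3 (-5.15 ± 0.36) fell there too (limma adjusted p between 4.66e-07 and 0.000161), again without a called difference. A difference that misses the threshold does not show that the responses are equal.

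Other responses were present without H-RasV12 and differed past the threshold with it. Gap43 read 117, 96.5 and 98.8 with H-RasV12 and 79.6, 64.1 and 40.6 with KSR1 added (-0.61 ± 0.23, difference -5.09 ± 0.32, limma adjusted p = 1.18e-06). Ereg read 234, 497 and 209 and 606, 67.9 and 209 (-0.41 ± 0.52, difference -3.79 ± 0.74, limma adjusted p = 0.0059). Ptgs2 read 184, 240.3 and 280.4 and 239, 54.3 and 210.0 (-0.60 ± 0.41, difference -3.67 ± 0.57, limma adjusted p = 0.00142). In each the KSR1+H-RasV12 arrays were no higher than the highest H-RasV12 array except for 1 Ereg array. Col4a1, a gene that fell, read 1626, 1428 and 1869 with H-RasV12 and 1496, 2547 and 2043 with KSR1 added (+0.28 ± 0.28, difference +3.44 ± 0.40, limma adjusted p = 0.000136). All 6 neuronal genes that rose without H-RasV12, all 4 mesothelial and epithelial genes and all 4 mesenchymal transcription factors differed in this test, beside 124 of all 343 probe sets that rose. These genes too were chosen by arrays that the test uses, so this is a description. Krt19 was the exception in direction, rising more with H-RasV12 (+3.47 ± 0.31) than without it. Several genes turned: Ccn4 rose with KSR1 on the H-RasV12 background (+1.94 ± 0.19, limma adjusted p = 9.45e-06), while Prrx1 (-1.35 ± 0.27), Dpysl3 (-1.31 ± 0.22), Uchl1 (-1.67 ± 0.26), Adam8 (-1.61 ± 0.39), Fst (-2.33 ± 0.41) and Ptgis (-2.27 ± 0.18) fell there (limma adjusted p between 1.38e-06 and 0.0105).

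**Figure D5:**
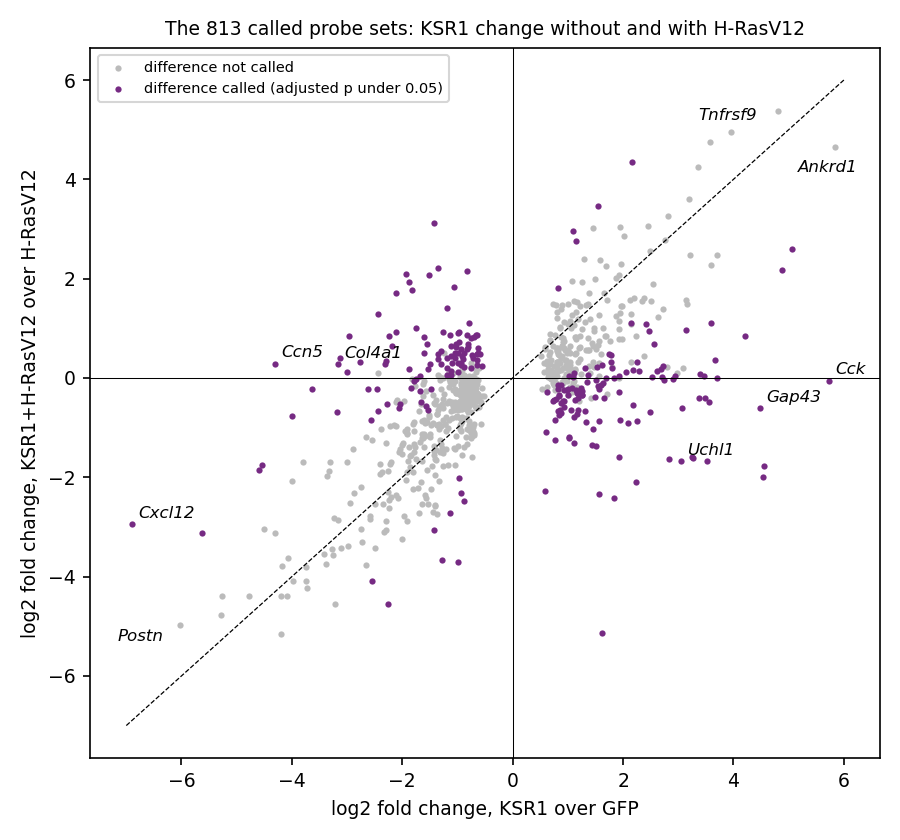
Each point is 1 of the 813 called probe sets, with the log2 fold change of KSR1 over GFP on the horizontal axis and that of KSR1+H-RasV12 over H-RasV12 on the vertical axis, and the dashed line marks equal changes. Purple points differ between both at a limma adjusted p under 0.05, such as Cck, which lies at +5.74 without and -0.05 with H-RasV12. Ankrd1 and Postn kept their direction in both, without a called difference.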

How the data were processed

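The labels' protocols describe total RNA from each line, extracted with TriReagent and labelled by the Affymetrix one-cycle method. The deposited values are linear MAS5 signal intensities, a method that the submitters' processing notes name without a version. As deposited, the 2% trimmed mean is 500.3 on all 12 arrays, so no further scaling was applied.

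Of 12422 probe sets, 10833 had 1 gene symbol, 396 several and 1193 none in the platform annotation, and 10817 gene IDs matched RefSeq. Signals plus 23 were taken as log2. A probe set was tested if at least 3 arrays read above 181.4, the median signal of the whole table, which 6897 did and 5525 did not. A probe set bright in a single line could pass, so counts and medians of the lists depend in part on the change itself. limma 3.58.1 in R 4.3.3 (lmFit, eBayes with an intensity trend) was fitted to all 12 arrays with 8 residual degrees of freedom, two-sided, with Benjamini-Hochberg adjustment over 6897 probe sets and calls at an adjusted p under 0.05. A p in parentheses beside a left-out array is that adjusted p. The script was tested on simulated data.

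For gene lists each gene is represented by its probe set with the highest mean over all arrays. Genes are named if they are Ksr1, among the 25 highest or 25 lowest called changes with arrays that do not overlap, or called members of a list. List members and second probe sets given as not called, Pparg, the 2 dimmer Tead4 probe sets and Xist lie outside that rule and were chosen with values known. The comparison and the lists were chosen with earlier results of these data known.

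Deviations of same-numbered KSR1 and GFP arrays from their line means correlated at 0.511, 0.209 and 0.367. The labels do not state a shared day or batch. On the evidence of these data the replicate numbers were taken as pairing the arrays, but only in an alternative setting with the replicate number as a block. The main fit has no such term, so its p-values and calls ignore the pairing. The alternatives were 18 other settings. Promoter windows are 250 bases before the RefSeq start (GRCm38.p6).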

Additional observations from a re-analysis of the deposited data

Results flagged for a closer look

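For 24 genes among the 25 largest rises and 25 largest falls, the response to KSR1 with H-RasV12 differed from that without it, by a limma test of the difference itself (adjusted p under 0.05 over all probe sets). Each value is the log2 response with H-RasV12 minus that without it. Among genes that rose without H-RasV12 the differences were Cck -5.79, Gap43 -5.09, Adam8 -4.88, Ngef -4.83, Uchl1 -4.72, Cxcl2 -3.90, Ereg -3.79, Ramp3 -3.69, Ptgs2 -3.67, Chrnb1 -3.43, Errfi1 -3.32, Col18a1 -3.31, Upp1 -2.71, Crip1 -2.49, Msln -2.46 and Ccnb1ip1 -2.17. Col18a1 is given here by its probe set with the largest change. Among genes that fell without H-RasV12 the differences were Pmp22 +2.50, Fmod +2.74, Fhl1 +2.80, Gas6 +3.25, Stbd1 +3.42, Col4a1 +3.44, Cxcl12 +3.94 and Ccn5 +4.60. The largest in size, Cck, went from a change of +5.74 without to -0.05 with H-RasV12, and Ccn5 from -4.31 to +0.29. The genes were named for their change without H-RasV12, in arrays that the test also uses. The differences of Upp1, Crip1, Chrnb1, Ccnb1ip1, Fmod and Fhl1 lost their calls under at least 1 alternative setting, with adjusted p values between 0.0519 and 0.15.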

How the results depend on the processing

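None of the 813 called probe sets changed direction under any of the 18 alternatives. The median over all probe sets tested was +0.04 and turned to -0.04 with median centring. The total of 813 calls ranged from 482 to 745 when single arrays were left out, the 343 that rose from 204 to 338, the 470 that fell from 278 to 407, and the 531 called differences with H-RasV12 from 340 to 526, with the lowest of these last without KSR1 2 and the others without GFP 3. Without KSR1 2 the total was 512, with 219 higher and 293 lower. These fits have fewer arrays. Array weights gave 523 that rose and 801 called differences, and the cause was not tested. With the replicate number as a block, which pairs the arrays, 1047 probe sets were called, including all 813. Of 180 named called probe sets 130 were called under every alternative and 50 lost the call under at least 1. Median centring gave 763 calls and quantile normalization 869. Changes near the bottom of the signal scale depend most on the constant of 23. One line per condition limits every comparison.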
